A study of Mus musculus with 2 samples.

Results

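The let-7 and miR-98 family was described in fetal mouse liver through 10 of its miRNA genes, Mirlet7a-1, Mirlet7a-2, Mirlet7b, Mirlet7c-1, Mirlet7c-2, Mirlet7d, Mirlet7f-2, Mirlet7g, Mirlet7i and Mir98. They were chosen by name from the 1973 annotated miRNA genes that were counted. A further pair, Mirlet7e and Mirlet7f-1, was followed through reads on the opposite strand of the overlapping rows Gm25927 and Gm24111. Small RNA below 30 nucleotides was sequenced from liver of B6NCrl mice at embryonic day 15.5, with males and females pooled. There was 1 group of 2 libraries, replicate 1 from 78 embryos and replicate 2 from 62, with no treatment or mutant allele, so no conditions could be compared. Counts on a gene's own strand (sense counts) summed to 5529166 in replicate 1 and 3169882 in replicate 2. Levels below are sense counts divided by these sums and scaled to counts per 1000000 (CPM). Mir122, the hepatocyte miRNA, held 18.2% of sense counts in replicate 1 and 16.9% in replicate 2, so the hepatocyte marker was present. Of the red cell genes, Mir451a had 18658 CPM in replicate 1 and 8843 in replicate 2, and Mir144 had 7777 CPM in replicate 1 and 8918 in replicate 2. In a pool of whole tissue, fewer cells of a type and less RNA per cell cannot be told apart.

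let-7 was found in Caenorhabditis elegans as a gene that times the passage from larval to adult cell fates. In mammals its miRNAs accumulate as cells differentiate, and they repress growth-linked messages such as those of Hmga2, Igf2bp1 and Ras genes. Its brake is LIN28, an RNA-binding protein that holds on to a GGAG stretch in the loop of a let-7 precursor and stops it from being cut. In mice, LIN28B is known for its part in fetal blood progenitors, which the liver houses at this stage.

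The mature 5p arms are shown because their near identity decides how reads can be told apart. All 12 genes share 1 seed, bases 2 to 8, in capitals below, which is the stretch that pairs with target messages. Sequences are from RefSeq on GRCm38.p6, written 5′ to 3′. The table had no 5p entry under Mirlet7a-2, but the let-7a-5p sequence was found whole in its hairpin.
let-7g-5p: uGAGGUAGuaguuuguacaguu
let-7i-5p: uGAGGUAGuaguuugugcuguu
let-7d-5p: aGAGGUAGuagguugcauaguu
miR-98-5p: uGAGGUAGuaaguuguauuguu
let-7e-5p: uGAGGUAGgagguuguauaguu
let-7f-5p: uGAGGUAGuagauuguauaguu
let-7b-5p: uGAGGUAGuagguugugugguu
let-7a-5p: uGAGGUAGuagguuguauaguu
let-7c-5p: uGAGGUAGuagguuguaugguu

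The 12 genes encode 9 distinct 5p sequences of 22 bases, which differ from each other at 1 to 6 positions. Counted from 1 at the 5′ end and against let-7a, let-7c carries A19G, let-7f G12A and let-7e U9G. let-7b carries A17G and A19G, let-7g G12U and U18C, miR-98 G11A and A19U, and let-7d U1A and U16C. let-7i was the farthest, with G12U, A17G, U18C and A19U. Of 36 pairs, 4 differ at a single base: let-7a with let-7c, let-7e and let-7f, and let-7b with let-7c. Among 1738 mature miRNAs in the same table, 2 outside the family carry this seed, let-7k and miR-1961, and their genes Mir7k and Mir1961 had 0 counts in both libraries. At 0 counts a level of up to 3 counts remains possible, which is 0.543 CPM at the depth of replicate 1 and 0.946 CPM at that of replicate 2.

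The 10 genes together had 507903 sense counts in replicate 1 and 314756 in replicate 2. That was 9.19% of all sense counts in replicate 1 (exact Clopper-Pearson 95% interval 9.16 to 9.21) and 9.93% in replicate 2 (9.90 to 9.96). The mean share of sense counts was 9.56% ± 0.526 (SD, n = 2). Reads with several mapping places are in neither part of this share, so it is not the family's share of all miRNA. With Mir122 taken out of the total, the mean share was 11.6% ± 0.503. All 10 genes had at least 10 counts in both libraries, against 17.8% of all annotated miRNA genes. The median member stood at 1492 CPM, while the median of the 352 genes with at least 10 counts in both libraries was 135 CPM. By mean level the family's genes ran from rank 2 to rank 231.

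Mirlet7g and Mirlet7i carried most of the family's sense counts, from which reads with several mapping places are left out. Mirlet7g (ENSMUSG00000065440.1; GRCm38 chr9:106178840-106178927, plus strand), in an intron of the histone methylation cofactor gene Wdr82, had 53303 CPM in replicate 1 and 57590 in replicate 2. It ranked 2 in both libraries, below Mir122 and above the endothelial miRNA gene Mir126a at 44199 ± 867 CPM. Mirlet7i (ENSMUSG00000065406.2; chr10:122985640-122985724, minus strand), which overlaps an exon of some transcripts of the pseudogene D630033A02Rik, had 23435 CPM in replicate 1 and 26545 in replicate 2. By mean it ranked 8, between Mir411 at 26893 ± 753 CPM and Mir322 at 22429 ± 2237 CPM, and its libraries overlapped those of both neighbours. Mirlet7g made up 58.0% of the family's counts in each library, and Mirlet7i 25.5% in replicate 1 and 26.7% in replicate 2. The ratio of Mirlet7g to Mirlet7i was 2.27 in replicate 1 and 2.17 in replicate 2.

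Next in level were Mirlet7d and Mir98, each with both mature arms found in 1 RefSeq hairpin. Mirlet7d (ENSMUSG00000065453.1; chr13:48536012-48536114, minus strand), within an exon of the lincRNA gene 6720427I07Rik, had 7150 CPM in replicate 1 and 7210 in replicate 2, at rank 35. Its neighbours in rank were Mir106b at 7789 ± 319 CPM and Mir101b at 6582 ± 409 CPM. Mir98 (ENSMUSG00000065536.2; chrX:151913214-151913321, plus strand), in an intron of the ubiquitin ligase gene Huwe1, had 4394 CPM in replicate 1 and 4537 in replicate 2. Below it was Mirlet7f-2 (ENSMUSG00000065602.1; chrX:151912346-151912428, plus strand), also in a Huwe1 intron, with 2035 CPM in replicate 1 and 2006 in replicate 2. The SD between libraries was 42.7 CPM for Mirlet7d, 101 CPM for Mir98 and 20.5 CPM for Mirlet7f-2, all small beside the gaps between these genes.

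The low members began with Mirlet7b (ENSMUSG00000065564.1; chr15:85707319-85707403, plus strand), in an exon of the noncoding RNA Lncppara, at 991 CPM in replicate 1 and 935 in replicate 2. Mirlet7a-1 (ENSMUSG00000065421.2; chr13:48538179-48538272, minus strand), in an exon of 6720427I07Rik, had 252 CPM in replicate 1 and 210 in replicate 2. Mirlet7a-2 (ENSMUSG00000092770.1; chr9:41536716-41536811, plus strand), in an intron of the noncoding RNA gene 3110039I08Rik, had 227 CPM in replicate 1 and 197 in replicate 2. The let-7c genes were lowest. Mirlet7c-1 (ENSMUSG00000065557.2; chr16:77599657-77599750, plus strand), in an intron of Mir99ahg, had 39.8 CPM in replicate 1 and 37.2 in replicate 2. Mirlet7c-2 (ENSMUSG00000065608.1; chr15:85706603-85706697, plus strand), in an exon of Lncppara, had 32.2 CPM in replicate 1 and 27.1 in replicate 2, from 178 and 86 counts.

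**Figure D1:**
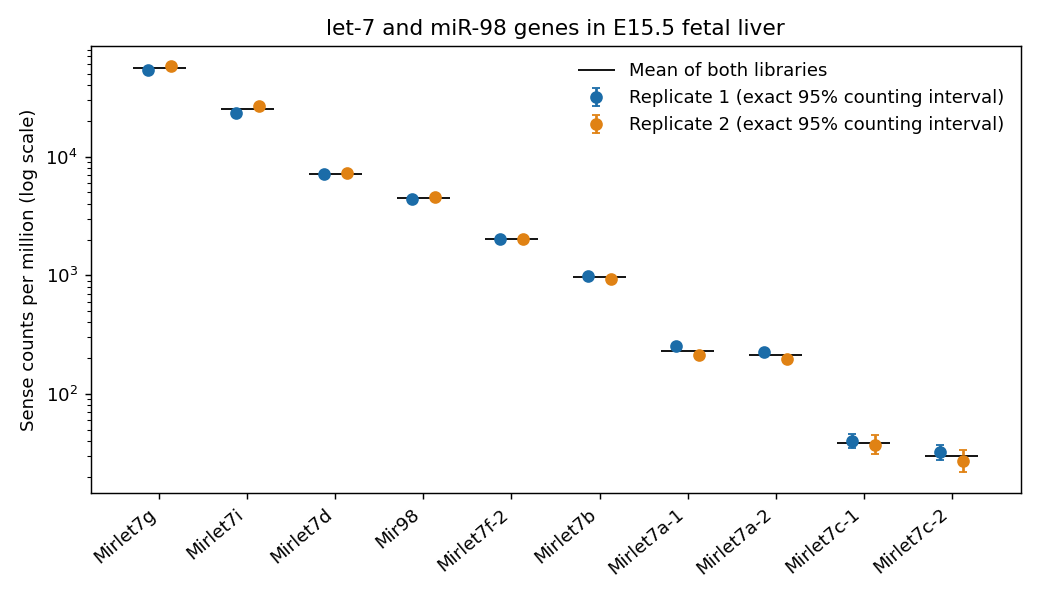
Sense CPM (log scale) of the 10 let-7 and miR-98 genes in replicate 1 (blue) and replicate 2 (orange), with exact 95% counting intervals and the mean of both libraries as a line. Levels run from 55446 CPM for Mirlet7g to 29.7 CPM for Mirlet7c-2, and Mirlet7a-1 and Mirlet7a-2 are the neighbours whose libraries overlap.

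Each gene in this order lay apart from the next in both libraries, except Mirlet7a-1 and Mirlet7a-2, whose values overlapped. The counting intervals of Mirlet7c-1 (34.7 to 45.4 CPM) and Mirlet7c-2 (27.6 to 37.3 CPM) overlapped in replicate 1. They overlapped in replicate 2 too (30.8 to 44.6 and 21.7 to 33.5 CPM). Mirlet7c-1 was still the higher in both libraries, by 1.24 times in replicate 1 and 1.37 times in replicate 2. This gap was not tested. Mirlet7g stood 1656 times above Mirlet7c-2 in replicate 1 and 2123 times above it in replicate 2. The counts join both arms of a precursor, and a read with several mapping places enters no gene's count. Such reads were 29.3% of all reads in replicate 1 and 31.1% in replicate 2, or 8.47 and 8.36 times the family's counts. Which miRNAs they came from was not analysed here, so a low count at a gene with a shared mature sequence cannot be read as low expression.

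Levels were set beside the number of hairpins that hold each mature arm. In 5 of the 10 genes, Mirlet7g, Mirlet7i, Mirlet7d, Mir98 and Mirlet7b, each arm was found in 1 RefSeq hairpin. They held 97.2% of the family's counts in replicate 1 and 97.5% in replicate 2, with mean levels from 963 to 55446 CPM. The other 5 share their 5p arm with another gene, and held 2.66% ± 0.227 of the family (SD, n = 2). In 3 of these, Mirlet7a-2, Mirlet7c-1 and Mirlet7f-2, the 3p arm is still their own, and in Mirlet7a-1 and Mirlet7c-2 it is not. The 3p arms are shown, with bases 2 to 8 in capitals, because a 3p arm found in 1 hairpin can place a read of its gene.
let-7a-1-3p: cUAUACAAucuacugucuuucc
let-7c-2-3p: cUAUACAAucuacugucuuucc
let-7a-2-3p: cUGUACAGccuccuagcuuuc
let-7c-1-3p: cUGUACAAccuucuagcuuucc
let-7f-1-3p: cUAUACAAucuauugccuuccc
let-7f-2-3p: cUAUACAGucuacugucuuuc

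The 3p arms of let-7a-1 and let-7c-2 are the same 22 bases, so neither mature product of these genes points to 1 place in this set of 1005 hairpins. The pair still had 252 and 32.2 CPM in replicate 1, and the ratio of Mirlet7a-1 to Mirlet7c-2 was 7.84 in replicate 1 and 7.76 in replicate 2. Over both let-7c genes the sum was 72.0 CPM in replicate 1 and 64.4 in replicate 2. Over both let-7a genes it was 480 CPM in replicate 1 and 407 in replicate 2. Mirlet7f-2 was the exception in size, above Mirlet7b although its 5p arm is also that of Mirlet7f-1. The 3 bases after the shared 5p arm differ within each pair of hairpins, with UUA in Mirlet7f-2 and GUG in Mirlet7f-1, UUA in Mirlet7a-1 and UAG in Mirlet7a-2, and UAG in Mirlet7c-1 and UUG in Mirlet7c-2. Whether longer reads account for any of these counts was not tested.

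**Figure D2:**
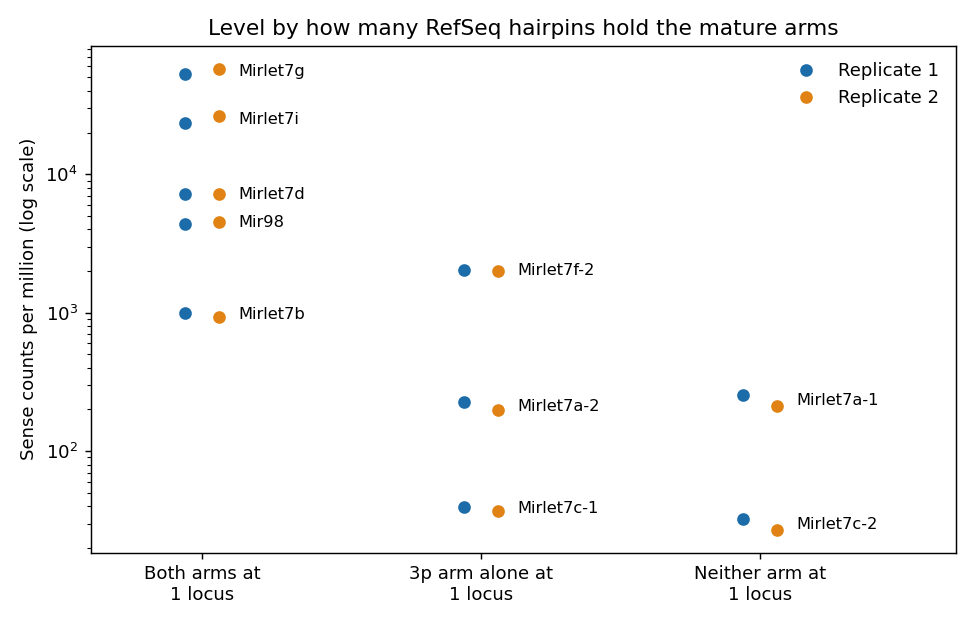
Sense CPM (log scale) of the 10 genes in replicate 1 (blue) and replicate 2 (orange), in columns by whether both mature arms, the 3p arm alone or neither arm lie at 1 RefSeq hairpin. The 5 genes with both arms at 1 locus range from 935 to 57590 CPM, and the other 5 from 27.1 to 2035 CPM, with Mirlet7f-2 on top.

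Mirlet7e and Mirlet7f-1 were seen in counts that the sense tables leave out. Both lie opposite another annotated miRNA gene, Mirlet7e (chr17:17830352-17830444, plus strand, in an intron of Spaca6) opposite Gm25927 (ENSMUSG00000092799.1) and Mirlet7f-1 (chr13:48537829-48537917, minus strand) opposite Gm24111 (ENSMUSG00000093232.1). The opposite strand of Gm25927 had 14586 counts in replicate 1 and 7505 in replicate 2, and its own strand had 0 in both. The opposite strand of Gm24111 had 537 counts in replicate 1 and 323 in replicate 2, against 3 and 1 on its own strand. Both rows thus took nearly all their reads from the strand on which the let-7 gene lies.

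On a CPM scale set by both strands together, Mirlet7e reached 2407 CPM in replicate 1, against 2152 CPM in replicate 2. This placed it between Mir98 at 4066 ± 81.1 CPM and Mirlet7f-2 at 1840 ± 23.7 CPM on the same scale, and the libraries of the 3 genes did not overlap. Mirlet7f-1 reached 88.6 CPM in replicate 1, against 92.6 CPM in replicate 2, between Mirlet7a-2 at 207 and 179 CPM and Mirlet7c-1 at 35.1 ± 1.75 CPM. With both added, the 12 genes held 8.94% ± 0.437 of all assigned counts, of which Mirlet7g made up 56.5%, Mirlet7i 25.4% and Mirlet7e 2.56%. The 10 listed genes themselves had 22 opposite-strand counts in replicate 1 and 12 in replicate 2, of which Mirlet7b had 20 and 10.

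The loop motif that LIN28 is known to bind was looked up in the hairpins. GGAG, searched on the RNA strand between the 2 mature arms, was found in 9 of the 12 hairpins, and those of Mirlet7b and Mirlet7c-2 were among the hairpins without it. It was found between the arms of 8.07% of 644 RefSeq mouse hairpins with both arms annotated. The stretches between the arms are shown for the 3 leading genes, with GGAG in capitals, and for Mirlet7b and Mirlet7c-2, which lack it.
Mirlet7g: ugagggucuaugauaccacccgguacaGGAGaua
Mirlet7i: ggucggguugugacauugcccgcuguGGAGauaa
Mirlet7d: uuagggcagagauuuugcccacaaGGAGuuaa
Mirlet7b: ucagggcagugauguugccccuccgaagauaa
Mirlet7c-2: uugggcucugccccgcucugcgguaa

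A match of letters is a description of the window and not a bound site.

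Most let-7 genes lie close to another miRNA gene on the same strand, and counts within such a cluster differed widely in some cases. On chromosome 13, Mirlet7a-1, Mirlet7f-1 and Mirlet7d lie within 2158 bases of each other's 5′ ends. Mirlet7d had 28.3 times the counts of Mirlet7a-1 in replicate 1 and 34.3 times in replicate 2. On chromosome 15, Mirlet7b starts 716 bases after Mirlet7c-2 and had 30.8 times its counts in replicate 1 and 34.5 times in replicate 2. On the X chromosome, Mir98 starts 868 bases after Mirlet7f-2 and had 2.16 times its counts in replicate 1 and 2.26 times in replicate 2. In all 3 clusters the gene with both arms at 1 locus was the higher one. The lower genes share a mature arm with another gene, so these ratios cannot be read as differences in expression.

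The other let-7 clusters pair a let-7 gene with the miR-99/100 and miR-125 families, which are known from blood stem cells. Mir99a, 721 bases before Mirlet7c-1, had 413 times its counts in replicate 1 and 402 times in replicate 2. Mir100 had 7.20 times the counts of Mirlet7a-2 in replicate 1 and 7.31 times in replicate 2. Mirlet7c-1 and Mirlet7a-2 each share a mature arm with another let-7 gene, and reads with several mapping places were not counted. These ratios therefore cannot be read as differences in expression. In the chromosome 17 cluster, on the both-strand scale, Mir99b stood at 5694 ± 123 CPM, Mirlet7e at 2279 ± 180 CPM and Mir125a at 1030 ± 18.7 CPM. Mir125b-2 and Mir125b-1, more distant on the let-7c-1 and let-7a-2 transcripts, had 150 ± 0.985 and 71.4 ± 1.89 CPM by sense counts. How many hairpins hold the mature arms of these Mir125b genes was not counted here, so their levels cannot be read as low expression.

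**Figure D3:**
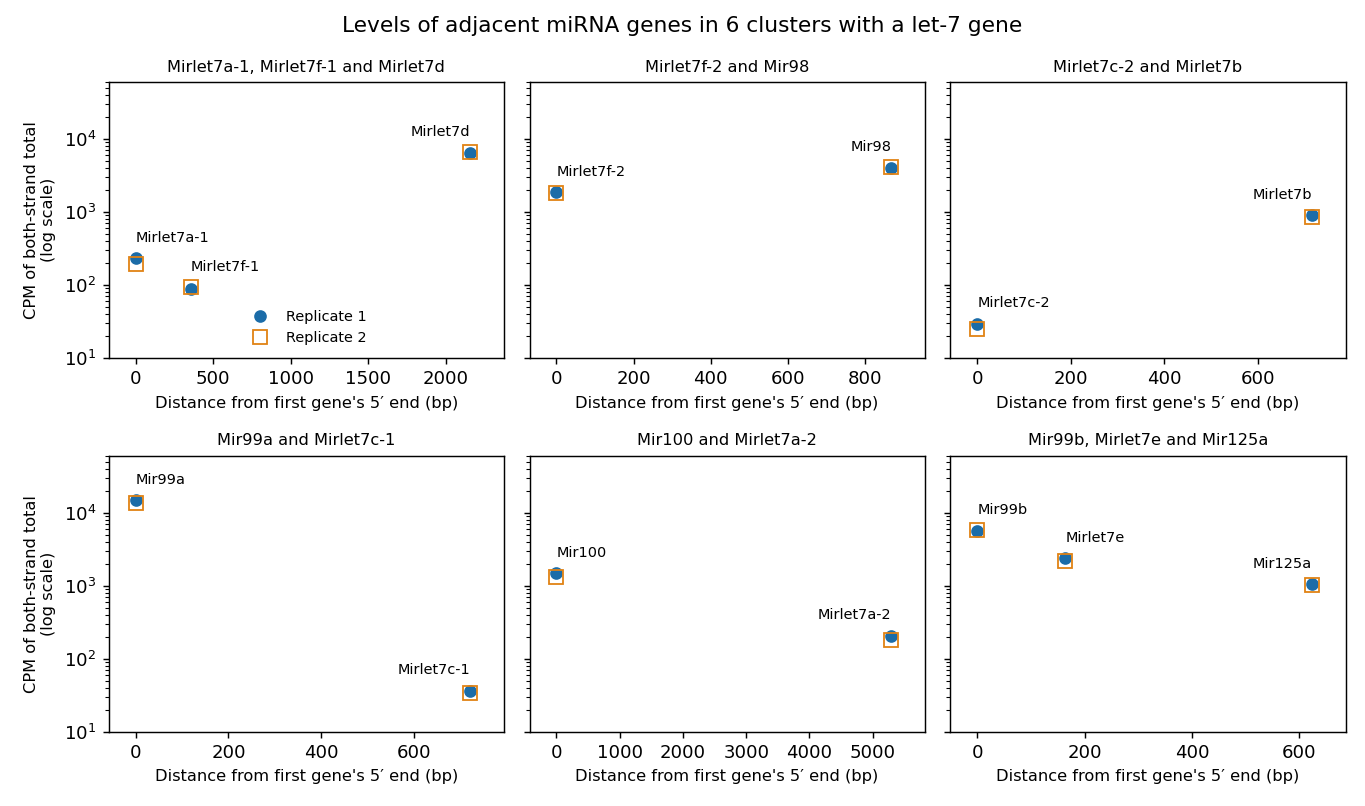
CPM of the both-strand total (log scale) against distance in bases from the 5′ end of the first gene, for 6 clusters that hold a let-7 gene, in replicate 1 (blue circles) and replicate 2 (orange squares). Mirlet7e and Mirlet7f-1 are from opposite-strand counts. Mir98 lies 2.16 to 2.26 times above Mirlet7f-2, while Mir99a lies 402 to 413 times above Mirlet7c-1. Mirlet7f-2 and Mirlet7c-1 each share a mature arm with another gene, so these ratios cannot be read as differences in expression.

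The libraries were then compared gene by gene. The log2 ratio of replicate 1 over replicate 2, on sizes scaled by the trimmed mean of M values (TMM), ran from -0.14 for Mirlet7i to 0.30 for Mirlet7a-1. All 10 genes were within 1.5-fold, and of the 187 miRNA genes averaging 100 CPM or more, 183 were within it and 2.14% were not. The family's median absolute log2 ratio was 0.13, against 0.11 for those 187 genes and 0.22 for all genes tested. The median signed ratio was 0.09 for the family and 0.04 for all genes tested.

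A test of counting error called 6 of the 10 genes different between the libraries, 4 higher and 2 lower in replicate 1 (exact conditional binomial test, two-sided, Benjamini-Hochberg adjusted p at most 0.05). The same test called 39.0% of all 456 genes, 20.8% higher and 18.2% lower. It called 62.0% of genes averaging 100 CPM or more, of which the family has 8, with 6 called. The family's count is close to that background of abundant genes. The test compares these 2 libraries, not conditions, and scaling by total counts turned the split to 3 higher and 3 lower. Mir451a was 1.11 higher in replicate 1 on the log2 scale, and its part in these differences was not tested.

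The 6 calls went in both directions. Mirlet7g (log2 ratio -0.08, adjusted p = 5.02e-67, exact binomial test) and Mirlet7i (-0.14, adjusted p = 3.07e-109, exact binomial test) were lower in replicate 1. Mirlet7a-1 (0.30, adjusted p = 4.65e-05, exact binomial test), Mirlet7a-2 (0.24, adjusted p = 0.00234) and Mirlet7b (0.12, adjusted p = 0.00117) were higher in replicate 1. Mirlet7f-2 was also called higher in replicate 1 (0.06, adjusted p = 0.0331, exact binomial test), but not by total counts, DESeq2 size factors or TMM over all genes, with adjusted p from 0.0262 to 0.506 over 6 alternatives. Mirlet7d (0.02), Mir98 (-0.01), Mirlet7c-1 (0.13) and Mirlet7c-2 (0.28) did not pass. The SD of the log2 ratio over the 187 genes with at least 100 CPM was 0.20, and of the 8 family genes in that set Mirlet7a-1 and Mirlet7a-2 were beyond it.

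**Figure D4:**
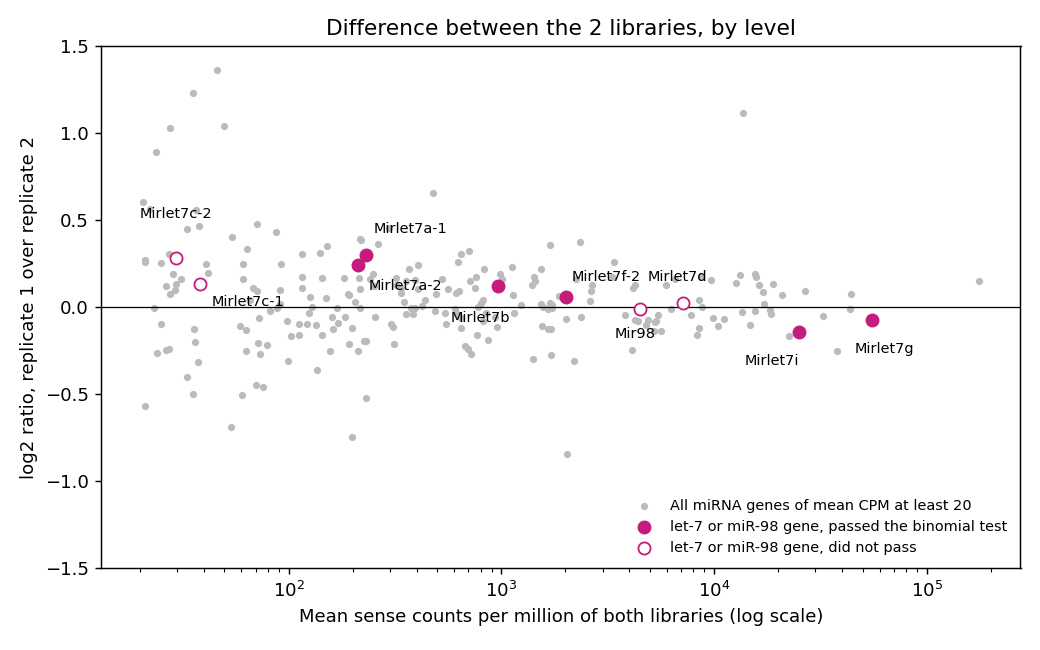
Log2 ratio of replicate 1 over replicate 2 against mean sense CPM (log scale) for 249 miRNA genes averaging 20 CPM or more (grey) and the 10 let-7 and miR-98 genes (magenta, filled where the exact binomial test passed). The family lies between -0.14 and 0.30.

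Of the 6 miR-99/100 and miR-125 genes linked to let-7 clusters, Mir99a (log2 ratio 0.17) and Mir100 (0.22) were called higher in replicate 1 and 0 lower, and Mir99b (-0.01), Mir125a (0.07), Mir125b-1 (0.09) and Mir125b-2 (0.05) did not pass. On both-strand counts, where the test called 39.7% of 468 genes, Gm25927, for Mirlet7e, was higher in replicate 1 (0.19, adjusted p = 1.00e-19, exact binomial test). Gm24111, for Mirlet7f-1, did not pass (-0.03, adjusted p = 0.870, exact binomial test).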

How the data were processed

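Read counts were deposited as whole numbers for each miRNA gene and library, over both strands, the gene's own strand and the opposite strand, and are not normalized. Text that the authors deposited with them says that the assembly was mm10 and the annotation release M4. Aligner, counter and trimming: not given in the sources used here. Unmapped reads (23.9% in replicate 1, 21.4% in replicate 2), reads mapping to several places and reads outside genes (5.40% and 6.23%) entered no library size. Names and positions came from release M21 on the same assembly: 1894 of 1973 identifiers matched, 79 of them with another version, Mirlet7a-1, Mirlet7c-1 and Mirlet7i among these, so these may have been counted at other positions.

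Sense counts were compared between libraries by an exact conditional binomial test, two-sided (scipy 1.17.1), over all genes with at least 10 counts summed, with sizes from edgeR 4.0.16 TMM over 352 genes with at least 10 counts in both libraries, and Benjamini-Hochberg adjustment at 0.05. The test covers counting error only, since 1 library stands on each side. DESeq2 1.42.0 gave alternative size factors. The labels number the libraries as biological replicates from separate pools, and their counts over genes gave a chi-square of 68.6 per degree of freedom, so they were not 1 library deposited again. Across the 352 genes the biological coefficient of variation (edgeR, intercept only) was 12.9%. Values after ± are SDs of 2 libraries. Without molecular identifiers, PCR copies of 1 molecule cannot be told from separate molecules, and the intervals and floors reflect counting error alone. On simulated counts of 445 genes the test called 7 of 250 unchanged genes, and 51.6% of genes changed 1.5-fold and 81.2% of genes changed 2-fold. The simulated counts held counting error alone, without the further variation seen between these libraries, so these rates do not carry over to them.

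Mature and hairpin sequences came from the RefSeq miRNA table (GRCm38.p6), in which all 12 family hairpins matched by symbol. A mature arm's loci are the hairpins of that table that hold it exactly. Members, lists and tests were chosen with earlier results of these data known. The genes named are the 12 family genes, the rank neighbours of the 3 highest, genes sharing the seed, and cluster partners with the miR-125b genes of the same host transcripts. The stretch between the arms of 1 family hairpin is not reported here.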

Additional observations from a re-analysis of the deposited data

Results flagged for a closer look

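Reads outside the sense counts stood above the limit of 3 counts that a count of 0 allows at 3 let-7 loci. They were 14586 counts in replicate 1 and 7505 in replicate 2 on the opposite strand of Gm25927, where Mirlet7e lies. On the opposite strand of Gm24111, where Mirlet7f-1 lies, they were 537 in replicate 1 and 323 in replicate 2. Mirlet7b had 20 opposite-strand counts in replicate 1 and 10 in replicate 2, beside 5477 and 2964 sense counts.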

How the results depend on the processing

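The family's share of 9.56% became 8.94% over both strands with Mirlet7e and Mirlet7f-1 added, 8.70% with unstranded counts, 11.6% without Mir122 in the total and 3.59% of all reads in the tables. It was 9.30% with only the genes whose 5p sequence lies at 1 locus. It ran from 9.19% to 9.93% with either library left out. The share of Mirlet7g in the family ran from 57.999% to 58.03% with either library left out and was 56.5% with Mirlet7e and Mirlet7f-1. The number of genes called different between libraries was 5 or 6 under 6 alternatives, of which TMM over all genes was added after seeing the data, and the median log2 ratio stayed between 0.052 and 0.088. The ratio of Mirlet7d changed sign to -0.012 by total counts and passed under none of these, and Mir98 passed by total counts alone (-0.046); the cause was not tested. Means on TMM-scaled sizes moved by less than the SD in all 10 genes. The TMM factors, 0.988 in replicate 1 and 1.01 in replicate 2, offset each other in a mean, so little movement was possible. No paired analysis was possible because there is 1 group. Low counts widen the intervals of Mirlet7c-1 and Mirlet7c-2. Reads mapping to several places limit the 5 listed genes with a shared 5p arm, and Mirlet7f-1 as well.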
